A study of Homo sapiens with 6 samples.

Results

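The 10 genes described here encode the chains of the interferon (IFN) receptors and the Janus kinases (JAKs) that signal from them. They are IFNAR1, IFNAR2, IFNGR1, IFNGR2, IFNLR1 and IL10RB, and JAK1, JAK2, JAK3 and TYK2. They were taken by gene symbol and not by a cut on their values, although earlier results of these data were known. All 10 were found among the 37887 rows of the count table. The RNA-seq data come from BT-549, an established triple-negative breast cancer (TNBC) cell line. By the design, the cells carried a stable, doxycycline-inducible shRNA against PBRM1, a subunit of the PBAF chromatin-remodeling complex. The 3 control libraries were from cells given 0.1% DMSO as vehicle, and the 3 shPBRM1 libraries from cells given 500 ng/ml doxycycline to switch on the shRNA. By title the groups differ in their shRNA (control or PBRM1), but the design describes the tet-PBRM1 shRNA vector in the cells of both arms. An effect of doxycycline and an effect of PBRM1 silencing cannot be told apart in these libraries. If the titles hold, a difference between cells made with different shRNAs cannot be told apart from silencing either.

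Type I IFNs (IFN-α and IFN-β) bind a receptor of IFNAR1, which carries TYK2, and IFNAR2, which carries JAK1. The type II IFN, IFN-γ, binds IFNGR1, which carries JAK1, and IFNGR2, which carries JAK2, and the type III IFNs (IFN-λ) bind IFNLR1 paired with IL10RB, a chain that also serves the IL-10 and IL-22 receptors. The kinases phosphorylate STAT proteins, which enter the nucleus and activate genes through the IFN-stimulated response element (ISRE) or the IFN-γ-activated site (GAS). JAK3 works with the common γ chain, IL2RG, of lymphoid cytokine receptors.

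Total counts were between 36429395 and 65096297 per library, and levels are given as CPM, which scales a gene's count to a library of fixed size. The floor of detection was set to 3 counts, which at these depths is 0.0471 to 0.0804 CPM and covers counting error only. PBRM1 fell from 158 ± 2.30 CPM in control cells (SD, n = 3) to 41.9 ± 1.22 CPM in shPBRM1 cells (SD, n = 3), which is 26.5% of control. CPM were normalized by the trimmed mean of M-values (TMM). Changes are log2 fold changes, shPBRM1 minus control, tested by edgeR's quasi-likelihood method in 15450 genes, and p-values were adjusted across all of them by the Benjamini-Hochberg method. An adjusted p under 0.05 was called higher or lower. The cells were profiled in bulk, so fewer cells of a type and less RNA per cell cannot be told apart. The summed level of 5 mesenchymal markers, typical of this cell line, was between 5399 and 5598 CPM in control libraries and between 4385 and 4655 CPM in shPBRM1 libraries. Of these 5 markers, 2 were higher and 3 lower. The summed level of 5 luminal epithelial markers was between 4.88 and 5.81 CPM in control libraries and between 1.40 and 2.17 CPM in shPBRM1 libraries. Nearly all of this sum was CDH1, between 4.65 and 5.37 CPM in control libraries and between 1.21 and 1.83 CPM in shPBRM1 libraries, and the other 4 markers (ESR1, PGR, EPCAM and GATA3) had at most 12 counts in any library and were not tested. The part of either marker list in the results was not tested.

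In shPBRM1 cells 4 of the 6 receptor chains, all from a gene cluster on chromosome 21, were higher and all 4 JAK kinases were lower. The higher chains, IFNAR1, IFNAR2, IFNGR2 and IL10RB, differed by 0.38 to 0.69 on the log2 scale, and the call of IL10RB was lost in 5 of 12 alternative settings. IFNGR1 was not called, and IFNLR1 was too close to the floor to test. Thus 8 of the 9 tested members were called, against 64.7% of all tested genes. The 4 higher calls stand beside 31.5% of all tested genes called higher, and the 4 lower calls beside 33.2% called lower. The control and shPBRM1 libraries did not overlap for 8 of the 9 tested members, against 68.3% of all tested genes. The median log2 fold change was 0.43 over the 5 tested receptor chains, -0.42 over the 4 kinases and -0.01 over all tested genes. With the additional requirement of a fold change over 2, only JAK3 was called, among the lower genes. At that threshold 9.68% of all tested genes were lower and 2.87% higher.

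**Figure D1:**
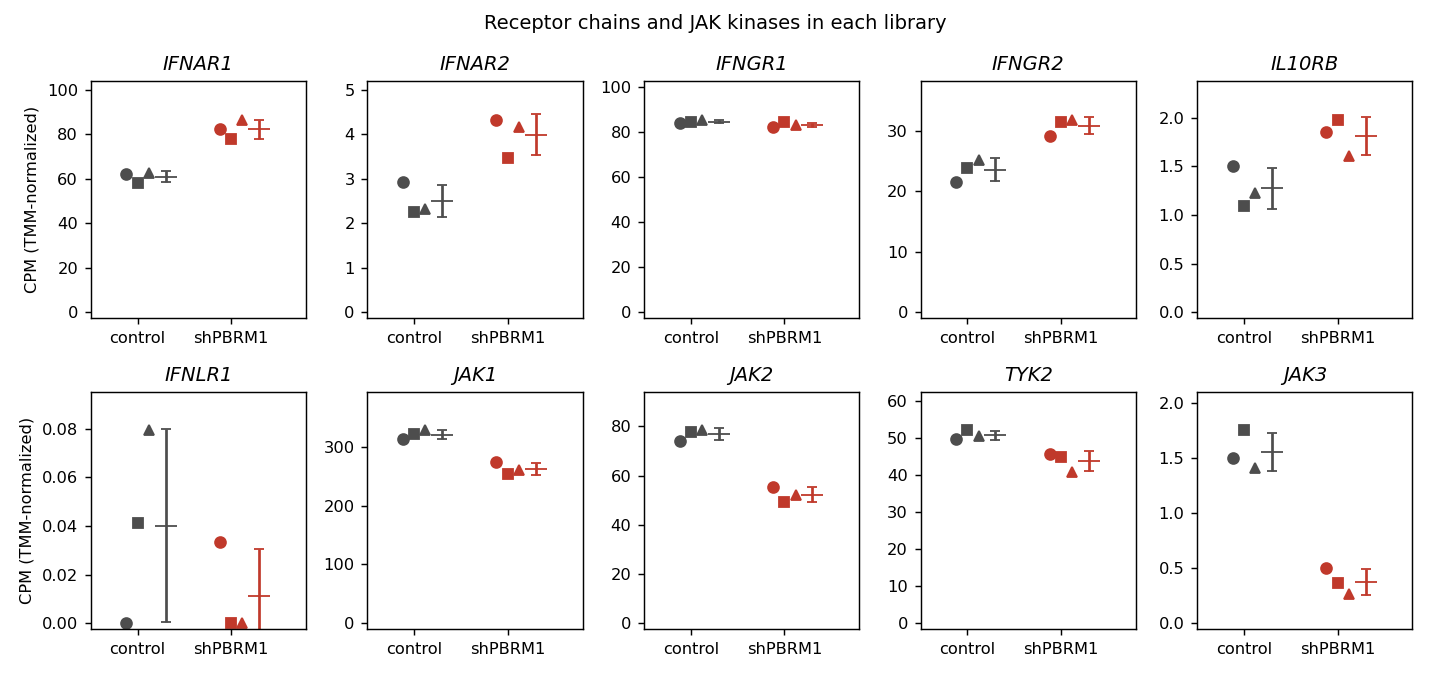
Normalized level (CPM, linear axes of different range) of each gene in the 3 control (grey) and 3 shPBRM1 (red) libraries, with circles, squares and triangles for replicates 1, 2 and 3 and a bar for the mean ± SD. The shPBRM1 libraries lie above all control libraries for IFNAR1, IFNAR2, IFNGR2 and IL10RB and below them for the 4 kinases, and the groups overlap for IFNGR1 and IFNLR1 (whose lower error bar in shPBRM1 cells is cut at the axis).

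The 4 receptor genes that were higher are neighbors on chromosome 21. In the GENCODE v29 annotation of GRCh38, IFNAR2 lies from 33229901 to 33265675, IL10RB from 33266358 to 33310187, IFNAR1 from 33324477 to 33359862 and IFNGR2 from 33402896 to 33479348, all on the plus strand and within 249 kb. Because these genes moved together, the RefSeq promoter windows (250 bases before to 50 bases after a transcript start, GRCh38.p14, written 5′ to 3′ along the gene) of 3 of them are shown; none was given for IFNAR2. They are chr21:33324145-33324444 for IFNAR1, chr21:33266117-33266416 for IL10RB and chr21:33403163-33403462 for IFNGR2, all on the plus strand. Capitals mark a GAS (TTCNNNGAA) or a GC box (GGGCGG, on either strand), the second being a motif of many housekeeping promoters.
IFNAR1: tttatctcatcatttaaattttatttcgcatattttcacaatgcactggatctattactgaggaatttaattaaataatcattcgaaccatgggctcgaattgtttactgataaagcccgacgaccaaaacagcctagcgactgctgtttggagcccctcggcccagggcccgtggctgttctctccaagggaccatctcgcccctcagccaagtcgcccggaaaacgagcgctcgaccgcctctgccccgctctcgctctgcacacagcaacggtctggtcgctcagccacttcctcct
IL10RB: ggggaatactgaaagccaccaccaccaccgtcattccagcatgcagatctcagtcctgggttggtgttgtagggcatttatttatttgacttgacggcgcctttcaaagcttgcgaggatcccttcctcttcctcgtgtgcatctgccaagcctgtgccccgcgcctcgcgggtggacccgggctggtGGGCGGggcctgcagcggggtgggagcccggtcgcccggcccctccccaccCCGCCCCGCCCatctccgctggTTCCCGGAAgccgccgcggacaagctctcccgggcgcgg
IFNGR2: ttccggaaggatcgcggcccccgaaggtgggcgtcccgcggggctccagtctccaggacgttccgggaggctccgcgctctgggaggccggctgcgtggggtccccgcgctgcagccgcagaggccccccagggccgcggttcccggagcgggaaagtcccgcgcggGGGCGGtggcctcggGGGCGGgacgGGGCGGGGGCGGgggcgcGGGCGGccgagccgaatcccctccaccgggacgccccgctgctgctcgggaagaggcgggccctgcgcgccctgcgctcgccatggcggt

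The ISRE letters (GAAANNGAAA, either strand) were found in none of the 16 windows of the 9 members with an entry, and in 3.57% of all 35116 windows. The GAS letters were in 2 of the 16 windows, those of IL10RB and IFNLR1, against 7.66% of all windows. GC boxes were in 9 of the 16 windows, against 45% of all windows. The IFNGR2 window holds 5 of them and the IL10RB window 3, whereas the IFNAR1 window shown holds none of the motifs searched, and a second IFNAR1 window holds 3 GC boxes. Some windows of IFNGR1 and of JAK2 overlap, so the 16 windows are not all separate. These matches describe letters, not bound sites.

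IFNAR1 and IFNAR2, the type I receptor chains, were both higher in shPBRM1 cells. IFNAR1 was at 61.9, 58.3 and 62.7 CPM in control replicates 1, 2 and 3 and at 82.2, 77.9 and 86.5 CPM in shPBRM1 replicates 1, 2 and 3. The lowest shPBRM1 library was above the highest control library. The log2 fold change of IFNAR1 was 0.43 (SE 0.054), with an adjusted p of 3.40e-09 by edgeR's quasi-likelihood test. IFNAR2 was at 2.92, 2.26 and 2.32 CPM in control libraries and at 4.33, 3.47 and 4.17 CPM in shPBRM1 libraries. Control replicate 1 was the highest of its group and still below every shPBRM1 library. Its log2 fold change was 0.69 (SE 0.15), with an adjusted p of 1.76e-04 by edgeR's quasi-likelihood test. The counts behind IFNAR2 were between 109 and 266 per library, as compared with 2312 to 5515 for IFNAR1. The log2 ratio of IFNAR1 to IFNAR2 within a library was 4.61 ± 0.19 in control cells (SD, n = 3) and 4.37 ± 0.12 in shPBRM1 cells (SD, n = 3), with overlapping groups (exact permutation test, two-sided, p = 0.2, adjusted p = 0.333 over 5 pairs).

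The chains of the type II receptor differed from each other. IFNGR1, the ligand-binding chain, lies on chromosome 6 from 137197484 to 137219449, minus strand. It was at 84.2, 84.3 and 85.6 CPM in control libraries and at 82.4, 84.3 and 83.2 CPM in shPBRM1 libraries. The groups overlapped, with a log2 fold change of -0.02 (SE 0.012) and an adjusted p of 0.532 by edgeR's quasi-likelihood test. IFNGR2, the chain that brings in JAK2, was at 21.6, 23.9 and 25.3 CPM in control libraries and at 29.3, 31.5 and 31.9 CPM in shPBRM1 libraries. Every shPBRM1 library was above every control library. The log2 fold change of IFNGR2 was 0.38 (SE 0.077), with an adjusted p of 1.24e-05 by edgeR's quasi-likelihood test. The log2 ratio of IFNGR1 to IFNGR2 moved from 1.85 ± 0.11 in control cells (SD, n = 3) to 1.43 ± 0.056 in shPBRM1 cells (SD, n = 3), with no overlap. The exact permutation test (two-sided) gave p = 0.1, the smallest that 3 against 3 libraries allow, and an adjusted p of 0.25 over 5 pairs.

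The type III receptor chains had the lowest CPM of the receptor genes. IFNLR1, the chain specific to IFN-λ, lies on chromosome 1 from 24154157 to 24187959, minus strand. It had 0, 2 and 4 counts in control libraries and 2, 0 and 0 counts in shPBRM1 libraries, so that a difference was not detectable at this depth. IL10RB was at 1.5, 1.09 and 1.23 CPM in control libraries and at 1.85, 1.98 and 1.60 CPM in shPBRM1 libraries. The groups did not overlap, although control replicate 1 and shPBRM1 replicate 3 were close. Its log2 fold change was 0.51 (SE 0.16), with an adjusted p of 0.028 by edgeR's quasi-likelihood test. IL10RB passed the threshold in 7 of 12 alternative settings. Under DESeq2 it did not, with an adjusted p of 0.0904, nor without control replicate 2, control replicate 3, shPBRM1 replicate 1 or shPBRM1 replicate 2, where the adjusted p by edgeR's quasi-likelihood test was 0.113, 0.0686, 0.0676 and 0.0798.

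Exons of the cluster are partly shared with other genes. In the annotation, 2038 of the 4614 exon bases of IFNAR2 and 1732 of the 4548 exon bases of IL10RB also belong to AP000295.1, a gene model that runs across both and was not analysed here. IFNAR2 further shares 1803 bases with the antisense gene IL10RB-DT, and IFNGR2 shares 380 bases with the antisense gene TMEM50B. The libraries were made with a stranded kit, but the strand setting of the counting, and how it treated reads on shared exons, are not given in the sources used here. The values of IFNAR2, IL10RB and IFNGR2 are therefore uncertain to that extent, whereas IFNAR1 shares no exon base with another gene. The same limit holds for IL2RG, IRF9 and CSNK1A1, named below. They share 50.8%, 48.4% and 37.4% of their exon bases on the same strand.

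Genes around the cluster moved in both directions. Of the 15 listed neighbors between SYNJ1 and RCAN1 on chromosome 21, 12 were tested, of which 7 were higher, 3 lower and 2 not called, with a median log2 fold change of 0.27. The list does not hold every gene of this window. In the whole window without the 4 receptor genes, 15 genes were tested, 7 higher (46.7%) and 4 lower (26.7%), with a median of 0.25. Of all tested genes, 31.5% were higher and 33.2% lower. On the side of IFNGR2, TMEM50B rose by 0.37 on the log2 scale, SON, which encodes a splicing factor, by 0.25, DONSON by 0.46, CRYZL1 by 0.42, ITSN1 by 0.41, ATP5PO, a subunit of the mitochondrial ATP synthase, by 0.60 and MRPS6 by 0.28. GART, a purine synthesis enzyme lying among them, was not called and had a log2 fold change of -0.03. SLC5A3 fell by 0.20 and RCAN1, an inhibitor of calcineurin, fell by 2.05. On the side of IFNAR2, SYNJ1 fell by 0.22 and PAXBP1 was not called, with a log2 fold change of -0.003. Over the chromosome without the 4 receptor genes, 24.8% of 153 tested genes were higher and 33.3% lower. Most of these neighbors also share exon bases with another gene. Leaving those out, 4 were tested, of which CRYZL1 and ITSN1 were higher and SYNJ1 and RCAN1 lower.

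**Figure D2:**
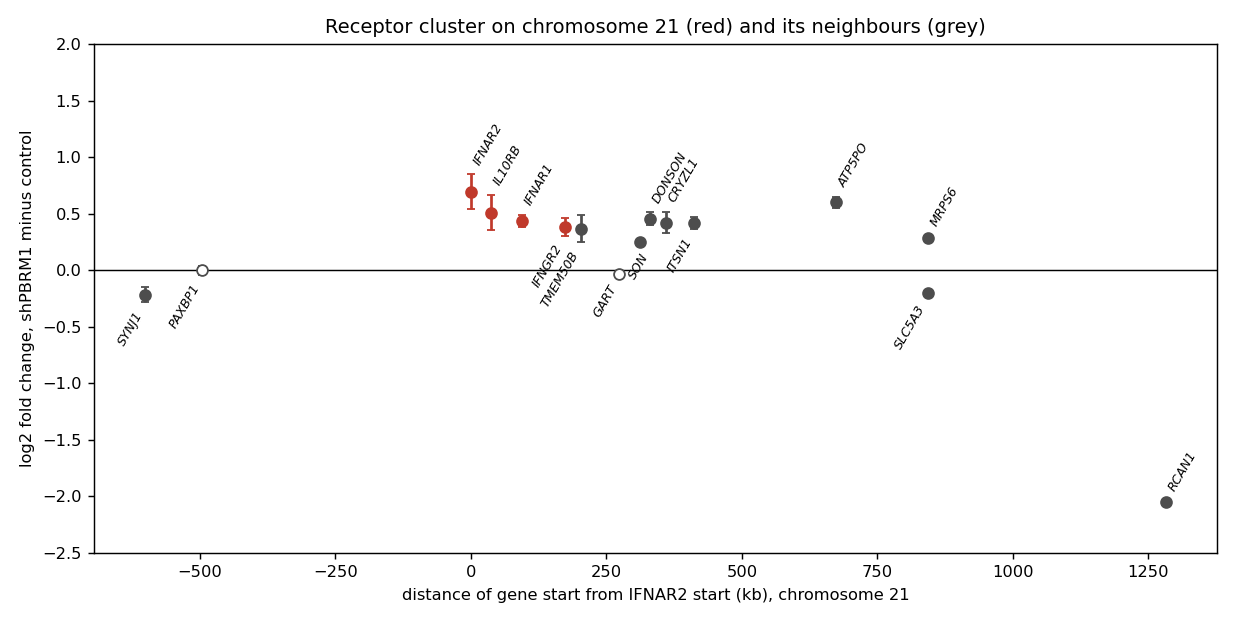
Log2 fold change (shPBRM1 minus control, bars ± SE) of the 4 receptor genes (red) and 12 tested neighbors (grey) on chromosome 21 by the distance of each gene's lower coordinate from that of IFNAR2 in kb, with filled points for an adjusted p under 0.05. The 4 receptor genes lie between 0.38 and 0.69, 7 neighbors are above 0 and called, and RCAN1 is lowest at -2.05.

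The 4 kinases were all lower in shPBRM1 cells, with the largest change in the least expressed. JAK1, shared by the receptors of all 3 IFN types, lies on chromosome 1 from 64833229 to 64966504, minus strand. It was at 314, 322 and 329 CPM in control libraries and at 275, 254 and 261 CPM in shPBRM1 libraries, without overlap. Its log2 fold change was -0.29 (SE 0.039), with an adjusted p of 1.24e-06 by edgeR's quasi-likelihood test. JAK2, the kinase of IFNGR2, lies on chromosome 9 from 4984390 to 5128183, plus strand. It was at 74.1, 77.9 and 78.4 CPM in control libraries and at 55.3, 49.3 and 52.1 CPM in shPBRM1 libraries, again without overlap. Its log2 fold change was -0.55 (SE 0.054), with an adjusted p of 7.22e-11 by edgeR's quasi-likelihood test. TYK2, the kinase of IFNAR1 and IL10RB, lies on chromosome 19 from 10350529 to 10380676, minus strand. It was at 49.5, 52.0 and 50.5 CPM in control libraries and at 45.7, 44.9 and 40.8 CPM in shPBRM1 libraries. The groups did not overlap, and the log2 fold change of -0.21 (SE 0.055) was the smallest of the 4 kinases, with an adjusted p of 4.71e-04 by edgeR's quasi-likelihood test.

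JAK3 lies on chromosome 19 from 17824780 to 17848071, minus strand, and is best known from lymphoid cells. It had 56, 85 and 71 counts in control libraries and 30, 14 and 17 counts in shPBRM1 libraries, which corresponds to 1.5, 1.75 and 1.41 CPM and to 0.50, 0.36 and 0.267 CPM. Every shPBRM1 library was below every control library. The log2 fold change was -2.04 (SE 0.25), a level 4.12-fold higher in control cells, with an adjusted p of 8.27e-07 by edgeR's quasi-likelihood test. IL2RG, the receptor chain that JAK3 serves, had no count in any library, although 50.8% of its exon bases are shared on the same strand. Of 6 leukocyte markers, CD3D, CD3E and MS4A1 had no count, and the summed level of all 6 was between 0.938 and 1.30 CPM in control libraries and between 0.800 and 0.848 CPM in shPBRM1 libraries. PTPRC was lower and CD14 higher. The part of these markers in the JAK3 result was not tested.

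The promoter windows of JAK3 and TYK2, the kinases with the largest and the smallest change, are shown for their different motifs. They are chr19:17847933-17848232 and chr19:10380523-10380822 of GRCh38.p14, both on the minus strand, with GC boxes (GGGCGG) and CCAAT boxes, on either strand, in capitals.
JAK3: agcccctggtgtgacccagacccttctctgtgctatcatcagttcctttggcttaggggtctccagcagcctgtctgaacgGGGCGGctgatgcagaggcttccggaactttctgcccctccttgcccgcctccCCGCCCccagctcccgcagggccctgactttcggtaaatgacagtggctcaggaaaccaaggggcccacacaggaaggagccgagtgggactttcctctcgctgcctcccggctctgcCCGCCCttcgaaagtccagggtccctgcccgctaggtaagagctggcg
TYK2: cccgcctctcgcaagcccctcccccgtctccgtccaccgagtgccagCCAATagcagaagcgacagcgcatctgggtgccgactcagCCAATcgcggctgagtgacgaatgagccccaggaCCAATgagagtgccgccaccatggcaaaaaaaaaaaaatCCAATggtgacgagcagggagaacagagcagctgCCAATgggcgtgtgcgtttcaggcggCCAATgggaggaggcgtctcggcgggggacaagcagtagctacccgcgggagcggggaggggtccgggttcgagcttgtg

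The TYK2 window holds 6 CCAAT boxes and no GC box, and the JAK3 window 3 GC boxes and no CCAAT box. The JAK1 window chr1:64966500-64966799 holds 6 GC boxes and the JAK2 window chr9:4985022-4985321 holds 1. The other JAK1 and JAK2 windows hold none of the motifs searched. Whether these motifs go with the size of the change was not tested. The CCAAT letters were in 2 of the 16 member windows, those of TYK2 and IFNLR1, against 34.6% of all windows.

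**Figure D3:**
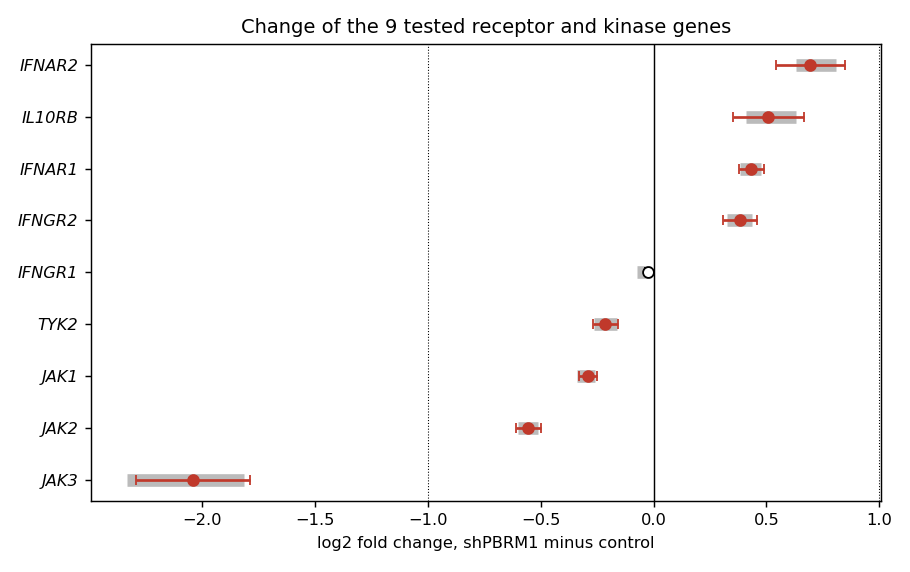
Log2 fold change (shPBRM1 minus control) of the 9 tested genes, with bars for ± SE, filled points for an adjusted p under 0.05, grey bands for the range over the alternative settings and dotted lines at a fold change of 2. The 4 receptor chains of chromosome 21 lie between 0.38 and 0.69, IFNGR1 is at -0.02, and the kinases lie between -0.21 for TYK2 and -2.04 for JAK3.

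Levels were compared between genes per kilobase of exon (RPKM, from normalized counts and the summed length of all annotated exons). In control cells JAK1 was highest at 50.9 ± 1.15 RPKM (SD, n = 3), followed by IFNGR1 at 25.8 ± 0.235 RPKM and JAK2 at 12.4 ± 0.378 RPKM. IFNAR1 at 9.68 ± 0.376 RPKM came next, above IFNGR2 at 7.98 ± 0.630 RPKM and TYK2 at 7.48 ± 0.183 RPKM, whose libraries overlapped. IFNAR2 at 0.542 ± 0.0790 RPKM, IL10RB at 0.280 ± 0.0459 RPKM, JAK3 at 0.228 ± 0.0259 RPKM and IFNLR1 at 0.00816 RPKM followed, and the libraries of IL10RB and JAK3 overlapped. The level of IFNAR2 was thus below that of its partner IFNAR1. The size of this gap depends on the length used. With the 773 exon bases that IFNAR2 shares with no gene on either strand as its length, IFNAR2 was at 3.24 RPKM. That was still below IFNAR1 at 9.68 RPKM. This alternative, chosen after seeing the data, kept all counts of IFNAR2. It therefore assumes that no counted read fell on shared bases, and 3.24 RPKM is an upper limit only for the counted reads on the unshared bases. Whether reads that touched shared bases were left out of the counts is not known, so the true level could be higher. On the same strand 2576 exon bases of IFNAR2 are unshared, a length for which no level was computed. In shPBRM1 cells IFNAR1 was at 13.0 ± 0.682 RPKM, above JAK2 at 8.46 ± 0.481 RPKM, the reverse of their order in control cells, and IFNGR2 at 10.4 ± 0.480 RPKM also lay above JAK2. JAK1 stayed highest at 41.7 ± 1.70 RPKM. With the length of the longest transcript in place of all exons, TYK2 at 11.7 RPKM and IFNGR2 at 10.6 RPKM lay above IFNAR1 at 9.93 RPKM in control cells, and IL10RB at 0.597 RPKM lay beside IFNAR2 at 0.584 RPKM, whereas IFNAR1 and JAK2 still changed places between the groups.

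**Figure D4:**
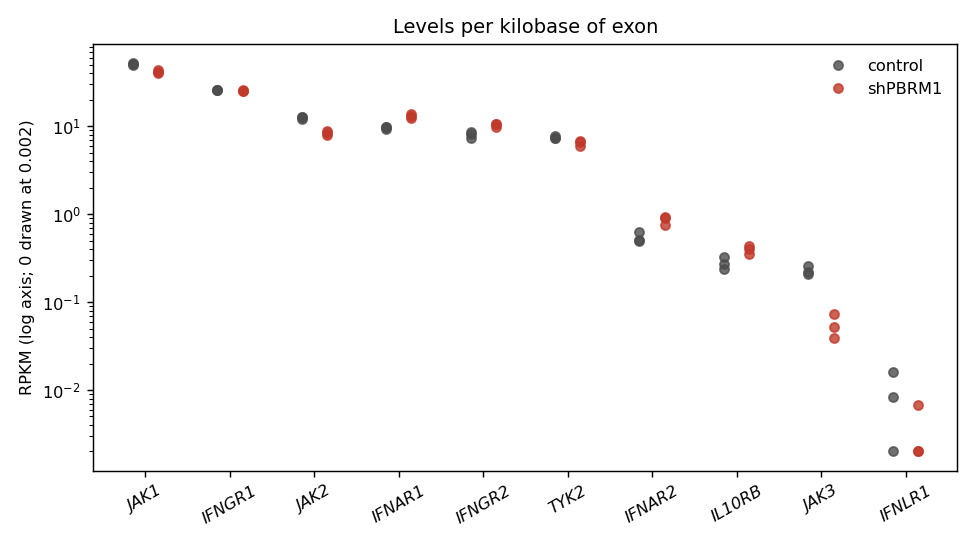
Level per kilobase of exon (RPKM, log axis, with 0 drawn at 0.002) of the 10 genes in the 3 control (grey) and 3 shPBRM1 (red) libraries, ordered by the control mean. JAK1 is highest at 50.9 RPKM and IFNLR1 lowest at 0.00816 RPKM in control cells, and the order of JAK2, IFNAR1 and IFNGR2 differs between the groups.

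The summed level of the 4 kinases was 71.1 ± 1.61 RPKM in control cells (SD, n = 3) and 56.7 ± 2.34 RPKM in shPBRM1 cells (SD, n = 3). The summed level of the 6 receptor chains was 44.3 ± 0.928 RPKM and 50.2 ± 0.892 RPKM. JAK1 made up 71.6% of the kinase sum in control cells and 73.5% in shPBRM1 cells. The share of JAK2 was 17.5% and 14.9%, that of TYK2 10.5% and 11.4%, and that of JAK3 0.321% and 0.0967%. The log2 ratio of JAK1 to JAK2 was 2.07 ± 0.018 in control cells (SD, n = 3) and 2.33 ± 0.026 in shPBRM1 cells (SD, n = 3), with no overlap (exact permutation test, two-sided, p = 0.1, adjusted p = 0.25). The ratio of JAK1 to TYK2 differed by -0.08 with overlapping groups (exact permutation test, two-sided, p = 0.3, adjusted p = 0.375). For IL10RB to IFNAR2 the difference was -0.17, also with overlap (exact permutation test, two-sided, p = 0.4, adjusted p = 0.4). Within the pairs of libraries of one replicate number, the ratios of IFNAR1 to IFNAR2, IFNGR1 to IFNGR2 and JAK1 to TYK2 were lower in shPBRM1 cells in 3 of 3 pairs, and that of JAK1 to JAK2 was higher in 3 of 3. An exact sign-flip permutation test over the pairs gave p = 0.25 for each of these, the smallest that 3 pairs allow, and p = 0.5 for IL10RB to IFNAR2.

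Genes next to JAK2 on chromosome 9 include CD274 and PDCD1LG2, which encode PD-L1 and PD-L2. Of 13 listed neighbors 11 were tested, of which 3 were higher, 5 lower and 3 not called, with a median log2 fold change of -0.02. Among all tested genes, 31.5% were higher, 33.2% lower and 64.7% called in either direction. CD274 fell by 1.42 and PDCD1LG2 fell by 1.11 on the log2 scale. The glutamate transporter gene SLC1A1 fell by 0.94, PLPP6 fell by 0.49 and CDC37L1 fell by 0.40. AK3 rose by 0.60, PLGRKT by 0.54 and ERMP1 by 1.04. RCL1, RIC1 and INSL6, which overlaps the JAK2 gene on the opposite strand without sharing exon bases, were not called.

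The other genes of the pathway were counted by role. Of the 22 IFN genes, 13 had no count in any library, 18 had at most 3 counts in every library, and 2 were tested. IFNB1, which encodes IFN-β and was named after its values were seen, had 26, 54 and 54 counts in control libraries and 2, 4 and 0 counts in shPBRM1 libraries. The groups did not overlap, with a log2 fold change of -4.60 (SE 0.57) and an adjusted p of 1.32e-07 by edgeR's quasi-likelihood test. IFNL1, a type III IFN gene also named after its values were seen, was not tested, with 10, 20 and 5 counts in control libraries and none in shPBRM1 libraries. Its mean control level was 4.47-fold above the mean floor of the shPBRM1 libraries, 0.058 CPM at 3 counts. Control replicate 3, at 0.0991 CPM, lay closer to that floor. IFNA1, near the floor and not tested, had 1, 4 and 2 counts in control libraries and 7, 4 and 6 counts in shPBRM1 libraries. Its direction was thus opposite to that of IFNB1 and IFNL1, without overlap in CPM. IFNE was tested and not called, and IFNG had no count.

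Downstream of the kinases, 7 STAT and IRF9 genes were listed and 6 tested, of which 1 was higher, 4 lower and 1 not called. Among all tested genes, 31.5% were higher and 33.2% lower. STAT2, a partner in the complex that binds the ISRE, was at 130 ± 4.44 CPM in control cells (SD, n = 3) and at 25.4 ± 1.11 CPM in shPBRM1 cells (SD, n = 3), a log2 fold change of -2.36 (SE 0.046). IRF9, the DNA-binding subunit of that complex, fell by 1.88 on the log2 scale. STAT6, which acts in IL-4 signaling, fell by 0.66 and STAT5B rose by 0.17. STAT3 was not called, with a log2 fold change of -0.07, and was called lower when the replicate number was fitted as a block, which gave 5 lower genes. The median of the list was -0.84, as compared with -0.42 for the kinases.

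Genes that restrain the pathway did not follow a common direction. Of 17 tested SOCS, PTPN, PIAS and related genes, 4 were higher, 3 lower and 10 not called, with a median log2 fold change of -0.03. Among all tested genes, 31.5% were higher and 33.2% lower. USP18, which binds IFNAR2 and dampens its signal, was at 41.5 ± 1.11 CPM in control cells (SD, n = 3) and at 1.01 ± 0.244 CPM in shPBRM1 cells (SD, n = 3), a log2 fold change of -5.37 (SE 0.21). PTPN1, a phosphatase of JAK2 and TYK2, fell by 0.58. SOCS5 fell by 0.16, with overlapping groups and an adjusted p of 0.0221 by edgeR's quasi-likelihood test. The number of lower genes in this list was 2 without control replicate 2 or 3 or shPBRM1 replicate 1 or 3 in turn. PTPN11, which encodes SHP2, rose by 0.68, PIAS4 by 0.34 and SH2B3, an adaptor that inhibits JAK2, by 0.31. All 4 listed genes for degradation of the IFNAR1 protein were called, where 64.7% of all tested genes were. BTRC and FBXW11, which encode the ubiquitin ligase subunits that recognize IFNAR1, rose by 0.73 and 0.17, CSNK1A1 rose by 0.19 and the kinase gene PRKD2 fell by 0.79.

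Other receptors that use these kinases were also mixed. Of 36 listed genes 32 were in the table and 24 tested, of which 8 were higher, 12 lower and 4 not called, with a median log2 fold change of -0.04. Over all tested genes 31.5% were higher and 33.2% lower. IL22RA1, which pairs with IL10RB to bind IL-22, fell by 4.04, from 2.45 CPM in control cells to 0.147 CPM in shPBRM1 cells. IL7R, a receptor chain that uses JAK1, fell by 2.08 and IL20RB fell by 1.62. IL2RA, a ligand-binding chain without a kinase of its own, rose by 2.72, IL12RB2, which uses JAK2, by 0.95 and LIFR, which uses JAK1, by 0.53. IL10RA, CSF2RB and IL23R had no count in any library.

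**Figure D5:**
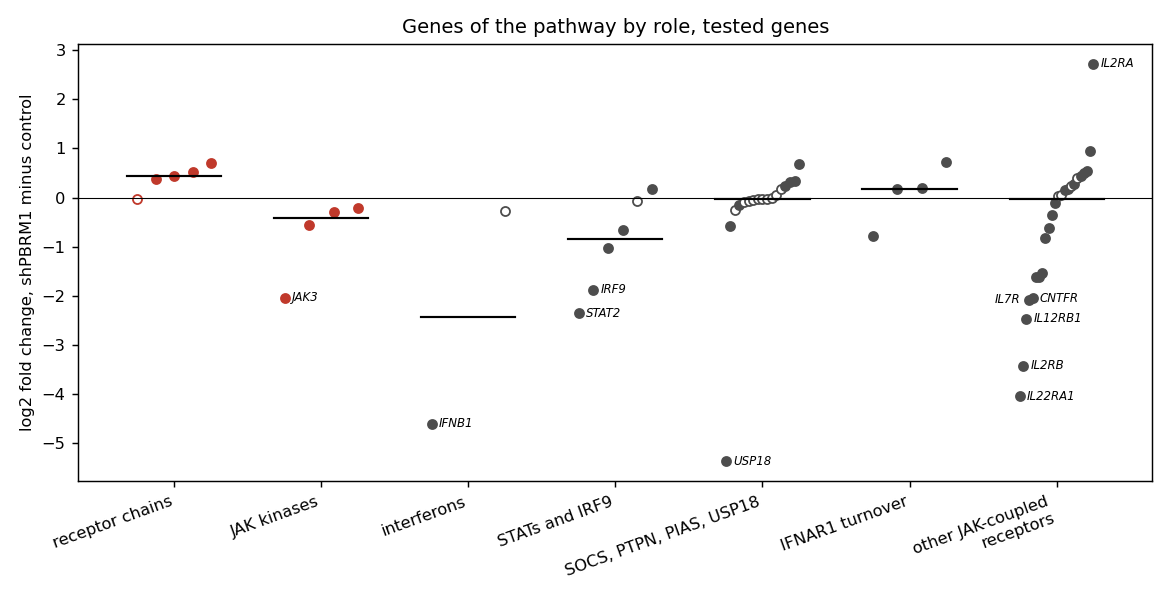
Log2 fold change (shPBRM1 minus control) of the tested genes of each role, with the receptor chains and JAK kinases in red, filled points for an adjusted p under 0.05 and a black line for the median. The receptor chains have a median of 0.43, the kinases of -0.42 and the STAT and IRF9 genes listed of -0.84, and USP18 is lowest at -5.37.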

How the data were processed

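BT-549 cells cultured in triplicate were profiled by stranded poly(A) RNA-seq. Per the submitters' processing notes, CASAVA 1.8.2, STAR 2.7.9a, featureCounts and DESeq2 1.24.0 were used with GRCh38.p7. The deposited values are raw counts for each gene symbol, not normalized by the authors, and these were used here. Of the 37887 rows, 14 carry dates in place of symbols and 12608 had no count. The titles gave each library's group and replicate number. The columns of control libraries carry the cell line and replicate number without a group name.

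Counts were normalized by TMM, filtered with filterByExpr and tested with edgeR 4.0.16 in R 4.3.3 (quasi-likelihood test, Benjamini-Hochberg adjustment over 15450 genes). Standard errors reflect how log2 CPM varied within groups, with 2 counts added. Ratios of paired genes were formed with 0.5 added to each count and compared by exact permutation tests (scipy 1.17.1). The ratio of IFNLR1 to IL10RB was planned but not formed, since IFNLR1 lay near the floor. Positions and exon lengths came from GENCODE v29, matched by symbol. The tests were also run on simulated counts, with changes larger than most members showed and in far fewer genes than called here. That check does not cover changes as small as those of most members.

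The genes and lists were chosen with earlier results of these data known. Named genes are the 10 members, PBRM1, up to 3 higher and 3 lower genes per list with the largest change among those called with a mean of at least 50 counts, list genes without counts, and tested neighbors. STAT3, IFNB1, IFNL1, IFNA1, IFNE and the cell type markers were named outside this rule, after their values were seen. The list of STAT genes is not complete, and its remaining part is not reported here.

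Within groups, library pairs differed by more than sampling noise (chi-square divided by its degrees of freedom, 4.92 to 24.9). The p-values set a difference between groups against the spread between these cultures of the same cell line. The main analysis did not pair libraries by replicate number, and pairing was used only in alternatives. Deviations from the group means correlated between the control and shPBRM1 libraries of one replicate number (0.734, 0.593 and 0.419 for numbers 1, 2 and 3, over the 5622 genes whose mean log2 CPM exceeded 5), so the number was taken to pair the libraries. Across different numbers the correlations were between -0.671 and 0.464, the highest, of control 2 with shPBRM1 3, being above the value for number 3. Genes are not independent replicates. The alternatives were DESeq2 1.42.0, scaling by RLE factors or by library size alone, removing the count filter or requiring a mean of 50 counts, fitting the replicate number as a block, leaving out each library, an adjusted p under 0.001, glmTreat against 2-fold and other gene lengths.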

Additional observations from a re-analysis of the deposited data

How the results depend on the processing

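The members were recomputed under 12 alternatives (11 for JAK3, whose mean was under 50 counts). Directions of the 8 called members did not reverse, and all but IL10RB were called in each alternative. The log2 fold change ranged from 0.38 to 0.47 for IFNAR1, from 0.63 to 0.81 for IFNAR2, from 0.33 to 0.43 for IFNGR2, from 0.41 to 0.63 for IL10RB, from -0.34 to -0.26 for JAK1, from -0.60 to -0.51 for JAK2, from -2.33 to -1.81 for JAK3 and from -0.26 to -0.16 for TYK2. IFNGR1 was called in none of the 12 and ranged from -0.07 to -0.01. With a mean of at least 50 counts JAK3 was not tested, and the number of members more than 2-fold lower was 0. The number of lower IFN genes, 1 in the main analysis, was 2 with DESeq2 and with no filter, 0 where a mean of 50 counts was required, and between 1 and 2 with 1 library left out (2 without control replicate 3 or without shPBRM1 replicate 1, 2 or 3 in turn). Without neighbors that share exon bases, an alternative chosen after seeing the data, 2 rather than 7 neighbors of the chromosome 21 cluster were higher. The number of lower STAT and IRF9 genes, 4 in the main analysis, was 3 with DESeq2 and where a mean of 50 counts was required. It was also 3 without control replicate 1 or 2 or shPBRM1 replicate 1 or 2 in turn, and 5 with library size scaling. Under the replicate block 4 members were higher and 4 lower, 5 STAT and IRF9 genes were lower and 5 inhibitors higher. Over all tested genes it called 4973 higher and 5226 lower, against 4863 and 5137 without the block, and the other counts of members, pathway genes and neighbors were the same. Scaling by library size only moved the median of all tested genes to -0.06, within 0.1 of the main value. Pairs of 3 against 3 libraries cannot pass the threshold in an exact test, and the counts of IFNLR1 were too few for a test.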
